A study of Mus musculus with 6 samples.

Results

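The 36 genes described here encode the collagens, glycoproteins and enzymes of the extracellular matrix and the markers of the mesenchymal cells that make it. They were chosen by name, as collagens, matrix proteins, matrix enzymes and fibroblast or pericyte markers, from the 44713 genes counted by RNA-seq in pancreatic islets of 6 mice, 3 db/db and 3 db/m. Of the 36 genes, 33 had enough counts to be tested, among 12760 tested genes in all. For description they were sorted into 5 fibrillar collagens, 7 basement membrane genes, 3 collagen VI genes, 8 glycoproteins and proteoglycans, 6 enzymes and inhibitors, and 7 mesenchymal cell markers.

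The db/db mice carry the diabetes mutation of the leptin receptor on both copies of Lepr, with obesity and diabetes, and their non-diabetic littermates were the db/m mice. The study's methods give the db/db strain as BKS.Cg-Dock7m+/+Leprdb/Nju and describe the mice of both groups as male, on a normal diet and 10 weeks old. The sample labels instead give C57BL/6 for both groups, with the genotype Lepr-/- for db/db mice and wild type for db/m mice. In both groups the pancreas was digested with collagenase, an enzyme that cleaves collagen, and islets were purified on a Histopaque density gradient before RNA was taken. The db mutation alters splicing and leaves the transcript in place, so the Lepr counts of 4, 10 and 68 in db/db islets and 37, 25 and 8 in db/m islets do not check the labels.

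Fibrillar collagens (types I, III and V) form the fibres of interstitial connective tissue and are made mainly by fibroblasts and activated stellate cells. Type IV collagen, laminins and nidogens form basement membranes, the thin sheets beneath endothelial and epithelial cells. In mouse islets, the basement membrane around capillaries is laid down largely by endothelial cells, with pericytes on the vessel wall and a sparse capsule of interstitial matrix at the islet edge.

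Library totals lay between 15641797 and 20614531 counts. Libraries labelled as islet cells were dominated by exocrine RNA: 18 acinar markers took 50.4 to 72.2% of all counts, and 11 β-cell markers took 0.152 to 4.40%. The libraries that stood apart were db/db replicate 1 with the most acinar and least β-cell RNA (72.2 and 0.152%) and db/m replicate 1 with the least acinar and most β-cell RNA (50.4 and 4.40%). The TMM normalisation factors, which scale libraries so that most genes do not differ, were 0.605 and 1.75 for these libraries and 0.919 to 1.07 for the others. Expression levels below are TMM-normalised CPM (counts relative to the size of the library).

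The stromal genes were scarce in every mouse. Together they took 0.00734, 0.0190 and 0.0192% of the counts of db/db replicates 1, 2 and 3, and 0.0409, 0.00879 and 0.00905% of those of db/m replicates 1, 2 and 3. The widest of the 95% Clopper-Pearson intervals, which cover counting error only, ran from 0.0399 to 0.0419%. Per kilobase of exon, the highest mean levels over the 6 mice were those of Lamc1 (2.41 CPM per kb), Timp3 (2.02), Sparc (1.71), Timp2 (1.65) and Dcn (1.503), and the lowest was that of Col15a1 (0.0174). The other 3 genes had too few counts for testing. Col15a1, a collagen that links basement membranes to the interstitium, had 0, 5 and 0 counts in db/db and 7, 0 and 2 in db/m mice. Pdgfra, the PDGF receptor of fibroblasts, had 2, 3 and 16 against 17, 0 and 0. Timp1, a secreted inhibitor of matrix metalloproteinases, was counted in db/m replicate 1 alone, with 4 counts, and 0 counts of a library allow up to 0.145 to 0.186 CPM (3 counts per library, scaled by library size, over the other 5 libraries). It lies under Syn1 on the opposite strand, which had 6 to 38 counts in those 5 libraries and 159 in db/m replicate 1.

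**Figure D1:**
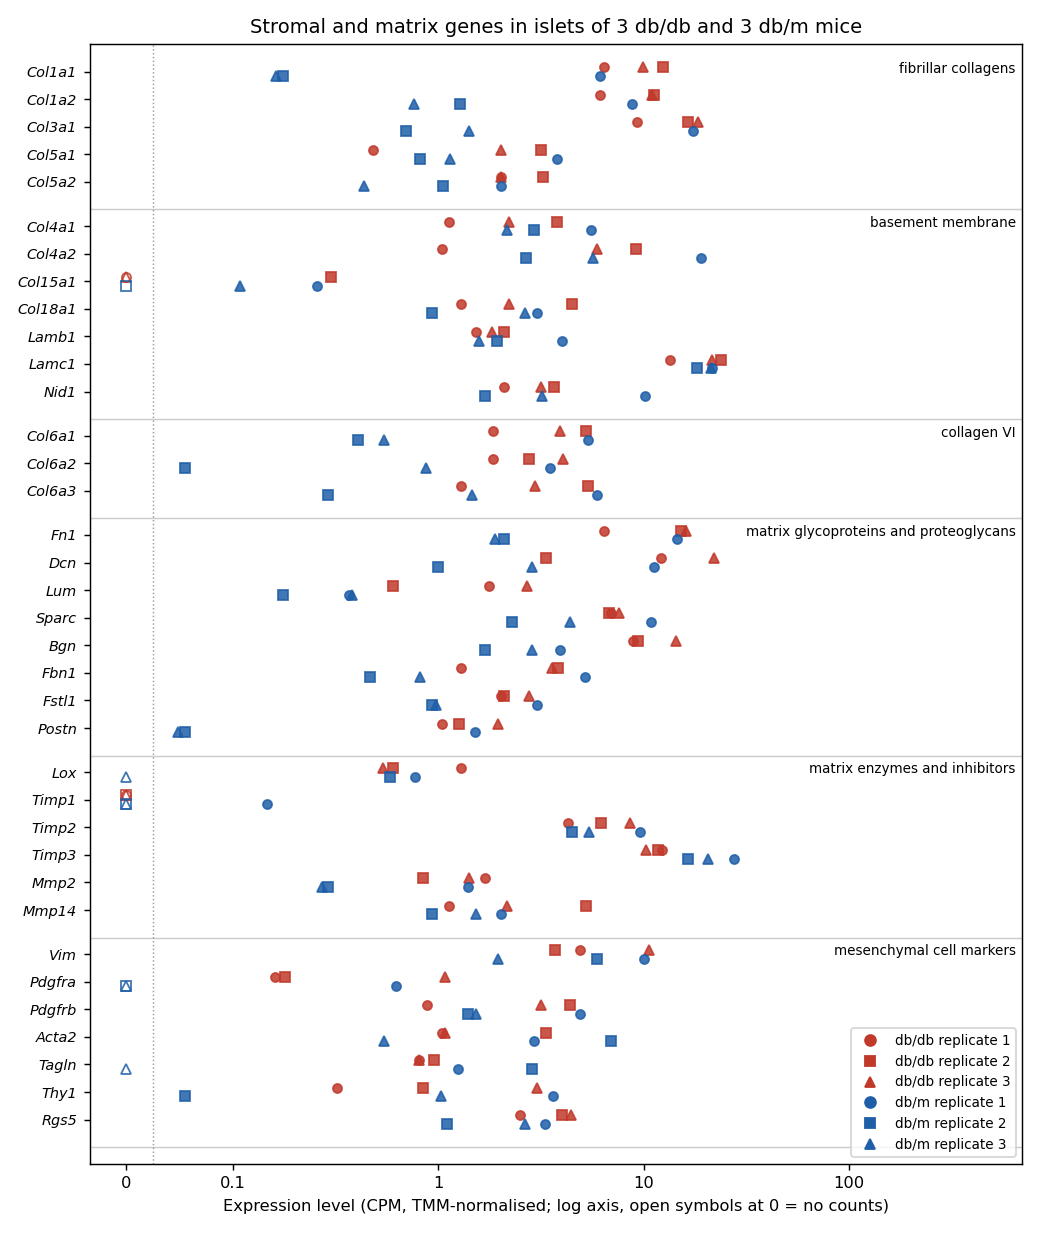
Expression level of each of the 36 stromal genes (CPM after TMM normalisation, log axis) in the 3 db/db mice (red) and 3 db/m mice (blue), grouped by role; each point is a mouse and open symbols mark 0 counts. In the fibrillar collagen, collagen VI and glycoprotein groups, db/m replicate 1 (blue circles) lies within the db/db range for 7 of 16 genes, above it for 6 and below it for 3.

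The question put to these genes was whether islets of diabetic mice carry more or less stromal RNA than those of their littermates. No stromal gene differed between db/db and db/m islets at an adjusted p under 0.05 (edgeR quasi-likelihood test with Benjamini-Hochberg adjustment), against 0.619% of all tested genes. At an unadjusted p under 0.05, 2 genes were higher in db/db islets, Bgn and Lum, where 5.04% of all tested genes were, and 1 was lower, Timp3, where 9.89% were. DESeq2 called the same 3 genes at an adjusted p under 0.05, against 5.54% of all tested genes. In every db/db mouse the value exceeded that of each db/m mouse for Bgn, Lum and Col1a1 (8.53% of tested genes did so) and was below it for Timp3 (12.6%). These counts lay close to the background, or below it for lower genes.

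The fitted fold change was above 0 for 22 of the 33 genes and below 0 for 11. Their median log2 fold change was 0.40 beside 0.00 for all tested genes, and -0.30 beside -0.59 when counts were scaled by library size alone, so the sign depended on the scaling while the distance from the median of all genes was 0.41 and 0.28.

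The spread lay mainly within the db/m group. Among the db/m mice, replicate 1 had the highest level for 30 of the 33 tested genes, where 37.4% of all tested genes had theirs in that mouse. Replicates 2 and 3 both lay below all 3 db/db mice for 15 of the 33 genes, where 12.2% of tested genes did, and both lay above them for 1 gene, where 15.8% did. The summed level of all 36 genes was 122, 192 and 209 CPM in db/db replicates 1, 2 and 3, and 235, 82.7 and 93.2 CPM in db/m replicates 1, 2 and 3. After TMM normalisation the db/m mean thus joined the highest mouse of the series with the lowest 2, whereas with library size alone db/db replicate 1 was the lowest (73.4 CPM, against 87.9 and 90.5 in db/m replicates 2 and 3). The group means were 137 ± 85.04 CPM in db/m and 174 ± 46.4 CPM in db/db mice (SD, n = 3 each), a ratio of 1.27. Both means lay inside the range of the db/m mice, 82.7 to 235 CPM.

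Each mouse was left out in turn. Without db/m replicate 1, 16 of the 33 stromal genes were higher in db/db islets at an unadjusted p under 0.05, against 4.61% of all tested genes, and 1 was lower, against 6.2%. These included Bgn, Lum and Timp3. Of the 17 genes, Col1a1, Col1a2 and Col3a1 passed an adjusted p under 0.05 (edgeR), against 0.4% of all tested genes, and the median log2 fold change of the 33 genes was 1.28. Col1a1 and Postn were also set to the lower bound that their few counts in db/m replicates 2 and 3 allow. Both bounds stay above the median, so this step could not change it. Leaving out any of the other 5 mice gave 0 genes at an adjusted p under 0.05 and 2 or 3 higher genes at an unadjusted p under 0.05. In whole islet preparations, fewer cells of a type and less RNA per cell cannot be told apart.

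**Figure D2:**
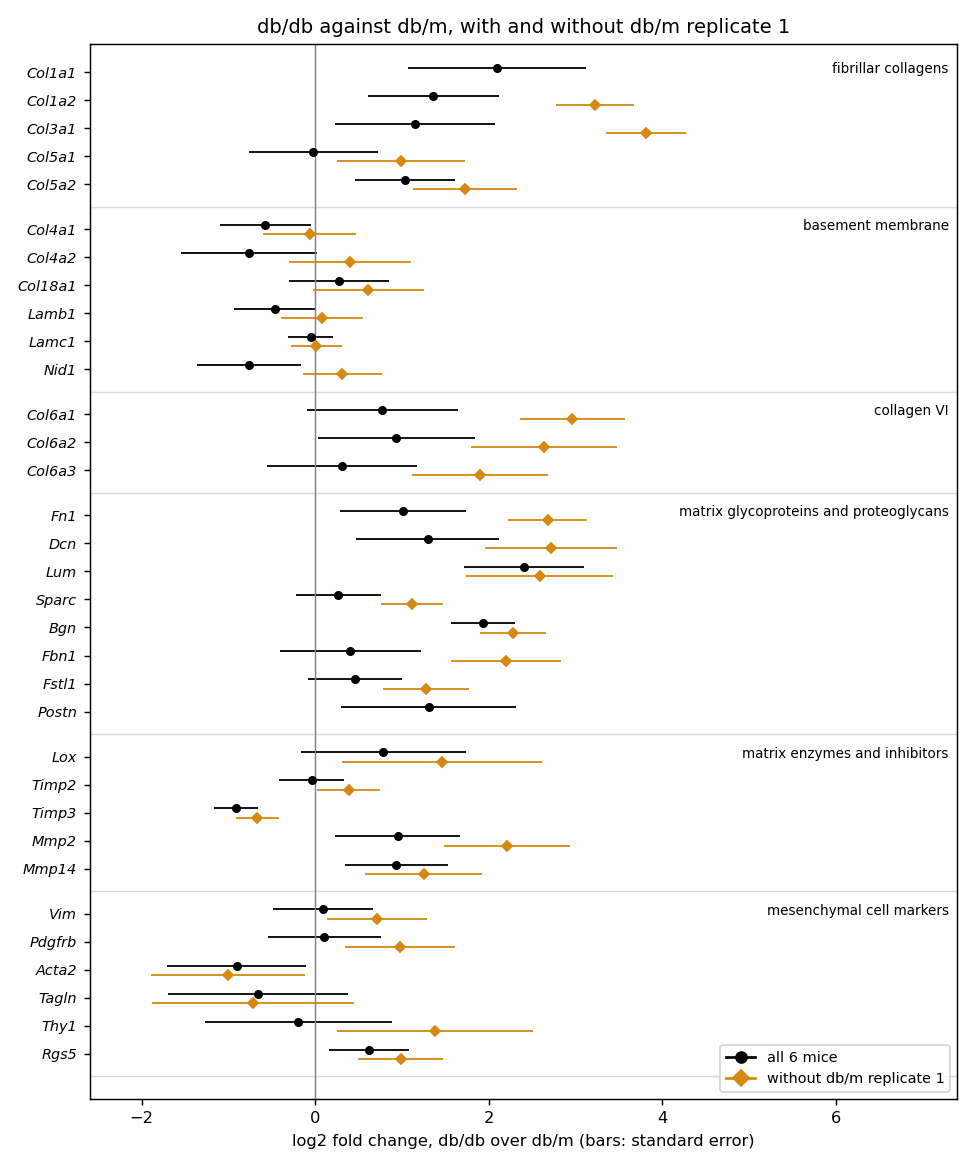
The log2 fold change of db/db over db/m islets (x axis, with standard errors) for the 33 tested genes, with all 6 mice (black) and without db/m replicate 1 (orange). Without that mouse the fibrillar collagens, collagen VI and the glycoproteins lie further to the right, with a median of 1.28 over the 33 genes against 0.40 with all 6 mice (-0.30 with all 6 mice and library size alone); Col1a1 and Postn have no orange point because db/m replicates 2 and 3 hold at most 3 counts of each.

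Fibrillar collagens showed the widest gap within the control group. Their summed level was 24.3, 46.4 and 43.2 CPM in db/db islets and 38.1, 4.02 and 3.90 CPM in db/m islets. After TMM normalisation db/m replicate 1 thus fell inside the db/db range and at 9.62 times the mean of the other db/m mice. With library size alone it lay above all db/db mice (66.3 CPM against 14.7, 46.0 and 39.6) and at 16.5 times that mean. The median log2 fold change of the 5 genes was 1.15 with all mice, 0.31 with library size alone and 3.23 without db/m replicate 1. None of the 5 passed an unadjusted p under 0.05 with all 6 mice. Without db/m replicate 1, 4 did, all higher in db/db islets, against 4.61% of all tested genes.

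Col1a1, the α1 chain of type I collagen (chr11:94936224-94953042, plus strand, GRCm38), had 80, 208 and 147 counts in db/db islets and 167, 3 and 3 in db/m islets. These were 6.42, 12.4 and 9.89 CPM against 6.13, 0.175 and 0.162 CPM, so the groups were separated only by the gap between 6.42 and 6.13, and they overlapped when scaled by library size alone. The log2 fold change was 2.09 ± 1.03 (SE, edgeR, adjusted p = 0.378, from 0.00273 to 0.579 over the alternatives). Against db/m replicates 2 and 3 alone, the level in db/db islets was 58.7 times higher, with a 95% counting interval of 26.7 to 161 that rests on 6 counts. This interval pools the mice and leaves out the spread between them.

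Col3a1, the chain of type III collagen, was the most abundant of the 5 in CPM, with 9.31, 16.4 and 18.3 CPM in db/db and 17.4, 0.699 and 1.41 CPM in db/m mice. Only db/m replicates 2 and 3 were low. The log2 fold change was 1.15 ± 0.92 (SE, edgeR, adjusted p = 0.590) with all mice and 3.81 ± 0.46 (adjusted p = 0.0107) without db/m replicate 1, over a range of adjusted p from 0.0107 to 0.903. Col1a2, the α2 chain of type I collagen, had a log2 fold change of 1.36 ± 0.76 (SE, edgeR, adjusted p = 0.445), and of 3.23 ± 0.45 (adjusted p = 0.0198) without db/m replicate 1. Col5a2 and Col5a1, chains of the type V collagen found inside type I fibrils, had log2 fold changes of 1.03 ± 0.58 and -0.02 ± 0.75 (SE).

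The 120 bases before the start of Col3a1 (RefSeq, GRCm38.p6, chr1:45311418-45311537, plus strand) are shown because this gene is the most abundant fibrillar collagen here. Capitals mark a match to TATAAA, beginning 117 bases before the start, far from where a TATA box normally acts:
Col3a1: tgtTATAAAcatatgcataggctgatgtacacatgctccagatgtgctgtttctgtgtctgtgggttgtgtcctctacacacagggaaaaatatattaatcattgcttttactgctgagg

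Basement membrane genes showed a narrower gap in sum. Their summed level was 20.5, 47.2 and 36.8 CPM in db/db islets and 63.4, 28.3 and 36.8 CPM in db/m islets, and the groups overlapped. The sum in db/m replicate 1 was 1.95 times the mean of the other db/m mice, and this sum is weighted by the abundant Lamc1 (1.08 times). For Col4a2 and Nid1 the same ratio was 4.54 and 4.16, for Lamb1 and Col4a1 2.29 and 2.18, and for Col18a1 1.68. The median log2 fold change of the 6 tested genes was -0.52 with all mice, -1.19 with library size alone and 0.20 without db/m replicate 1, and none of them passed an unadjusted p under 0.05 with or without that mouse.

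Lamc1, the γ1 chain shared by most laminins (chr1:153218922-153332786, minus strand), had 13.4, 23.8 and 21.4 CPM in db/db and 21.4, 18.2 and 21.4 CPM in db/m mice. The groups were close, with 19.6 ± 5.45 against 20.3 ± 1.86 CPM (SD, n = 3 each), and its log2 fold change of -0.05 ± 0.26 (SE, edgeR, adjusted p = 0.939) was within the spread. Nid1, nidogen-1, which links laminin to type IV collagen, had 2.09, 3.65 and 3.16 CPM in db/db and 10.2, 1.69 and 3.19 CPM in db/m mice. Its high value was that of db/m replicate 1 alone. The log2 fold change was -0.77 ± 0.60 (SE, edgeR, adjusted p = 0.580) and changed sign to 0.31 without that mouse.

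Col4a1 and Col4a2, the chains of the common type IV collagen, are transcribed in opposite directions from starts that lie beside each other on chromosome 8, and their annotated spans overlap. Their log2 fold changes were -0.57 ± 0.52 and -0.76 ± 0.78 (SE), and without db/m replicate 1 they were -0.06 and 0.40. Col18a1, the source of endostatin, was at 0.28 ± 0.58, on 16 to 82 counts, beside 100 to 196 counts of Slc19a1, which overlaps it on the opposite strand. Lamb1, a laminin β chain, was at -0.47 ± 0.47. The standard errors of these genes are as large as most of their fold changes.

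**Figure D3:**
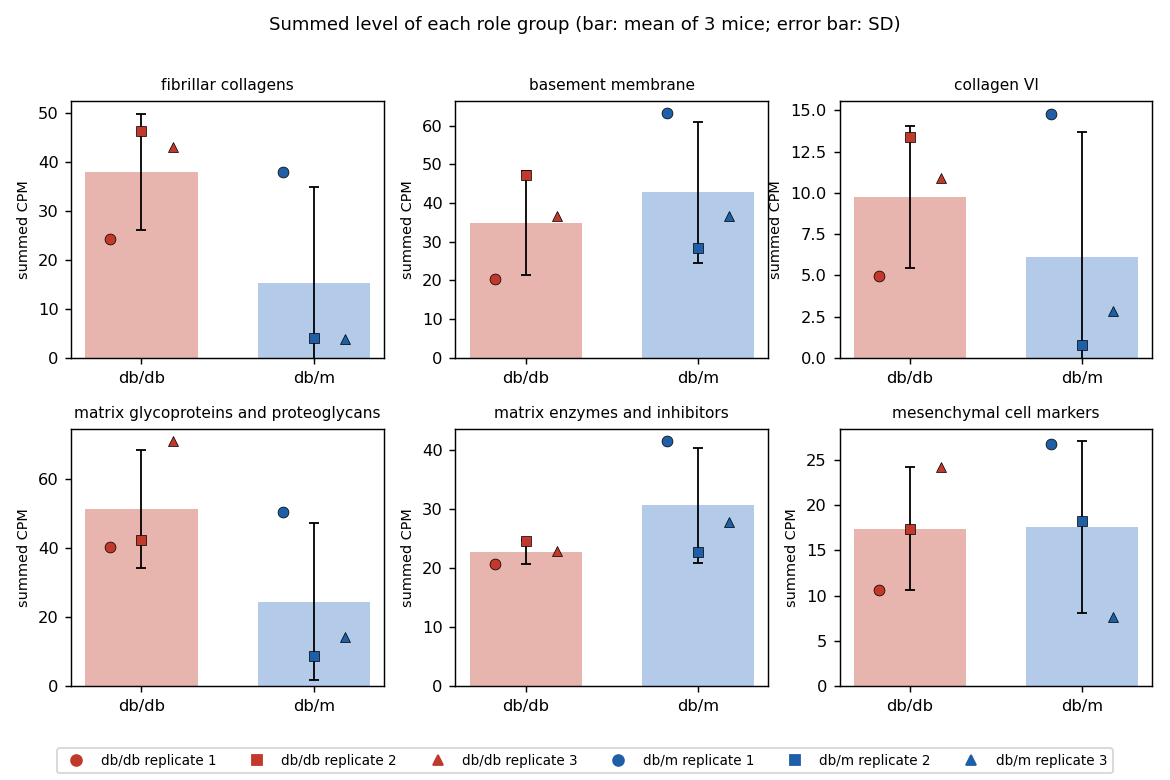
Summed level (CPM, TMM-normalised, linear axes from 0) of each of the 6 role groups, with a point for every mouse, bars for the mean of 3 mice and error bars for the SD (drawn down to 0 at most). In the fibrillar collagen group the db/m mice sit at 38.1, 4.02 and 3.90 CPM, whereas in the basement membrane group they sit at 63.4, 28.3 and 36.8 CPM around db/db values of 20.5 to 47.2 CPM.

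Collagen VI, a microfibril protein of the zone between basement membrane and interstitium, had a pattern like that of the fibrillar collagens. Its 3 chains summed to 4.98, 13.4 and 10.9 CPM in db/db islets and 14.8, 0.757 and 2.87 CPM in db/m islets. The median log2 fold change was 0.77 with all mice, -0.06 with library size alone and 2.64 without db/m replicate 1. No chain passed an unadjusted p under 0.05 with all mice. Without db/m replicate 1 all 3 did, each higher in db/db islets, against 4.61% of all tested genes.

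Col6a2, the α2 chain, had 1.85, 2.75 and 4.04 CPM in db/db and 3.49, 0.0582 and 0.866 CPM in db/m islets, and its log2 fold change was 0.93 ± 0.90 (SE, edgeR, adjusted p = 0.658). Db/m replicate 2 held a single Col6a2 count. Col6a3, the longest chain, had 1.28, 5.38 and 2.96 CPM against 5.95, 0.291 and 1.46 CPM, with a log2 fold change of 0.31 ± 0.86 (adjusted p = 0.891) that was -0.46 with library size alone. Col6a1 was at 0.77 ± 0.87 (SE).

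Glycoproteins and proteoglycans held the 2 stromal genes with the smallest p among those higher in db/db islets. All 8 genes of the group had a positive fold change, with a median of 1.15 on the log2 scale (0.30 with library size alone, where 5 of the 8 were positive), and 2 of them passed an unadjusted p under 0.05. Of all tested genes 5.04% were higher at that p. Without db/m replicate 1 all 8 genes of the group were higher at an unadjusted p under 0.05, against 4.61% of all tested genes. Their median was then 2.43. The group summed to 40.5, 42.5 and 71.2 CPM in db/db islets and to 50.6, 8.68 and 14.2 CPM in db/m islets.

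Bgn encodes biglycan, a small leucine-rich proteoglycan that binds collagen fibrils and can act on innate immune receptors when released. It had 111, 157 and 214 counts in db/db islets and 107, 29 and 53 in db/m islets, or 8.91, 9.39 and 14.4 CPM against 3.93, 1.69 and 2.87 CPM. Every db/db value was above every db/m value, including that of db/m replicate 1. The means were 10.9 ± 3.04 and 2.83 ± 1.12 CPM (SD, n = 3 each), and the log2 fold change of 1.93 ± 0.36 (SE, edgeR, adjusted p = 0.0585) stopped short of the threshold. Over the alternatives the adjusted p ran from 9.11e-05 to 0.262, and with library size alone the groups overlapped.

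The 120 bases before the start of Bgn (RefSeq, GRCm38.p6, chrX:73483481-73483600, plus strand) are shown because this gene had the smallest p of the 33. Capitals mark CCGCCC, the GC box read on the opposite strand, which begins 34, 10 and 6 bases before the start, the last 2 matches overlapping:
Bgn: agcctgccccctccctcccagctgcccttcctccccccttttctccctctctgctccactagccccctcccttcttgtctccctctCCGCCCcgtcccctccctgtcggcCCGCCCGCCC

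Lum, lumican, a related proteoglycan of collagen fibrils, was far scarcer, with 22, 10 and 40 counts in db/db islets and 10, 3 and 7 in db/m islets. In CPM these were 1.77, 0.598 and 2.69 against 0.367, 0.175 and 0.379, so the groups did not overlap after TMM normalisation. The log2 fold change was 2.41 ± 0.69 (SE, edgeR, adjusted p = 0.147, from 0.0361 to 0.460 over the alternatives). For this gene db/m replicate 1 was not the highest of the db/m mice.

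Fn1, fibronectin, a glycoprotein that joins cells to collagen, was the most abundant of the group in mean CPM, with 6.42, 15.2 and 16.1 CPM in db/db and 14.5, 2.10 and 1.90 CPM in db/m islets. Its log2 fold change was 1.01 ± 0.73 (SE, edgeR, adjusted p = 0.545), and 2.68 ± 0.45 without db/m replicate 1 (adjusted p = 0.0508, the lowest of a range up to 0.910). Dcn, decorin, had 12.1, 3.35 and 22.1 CPM against 11.2, 0.990 and 2.87 CPM, a log2 fold change of 1.29 ± 0.83 (SE). The related proteoglycans Bgn, Dcn and Lum thus all had positive fold changes, and after TMM normalisation only for Dcn did db/m replicate 1 lie among the db/db mice.

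Of the remaining glycoproteins, Postn, periostin, a protein of remodelling connective tissue, had 13, 21 and 29 counts in db/db and 41, 1 and 1 in db/m mice. With all mice its log2 fold change was 1.31 ± 1.01 (SE, edgeR, adjusted p = 0.576), and 0.42 with library size alone. Against the 2 counts of db/m replicates 2 and 3 alone, its level in db/db islets was 25.5 times higher. The 95% counting interval of 6.77 to 215 leaves out the spread between mice. Sparc, a collagen-binding glycoprotein, Fbn1, which forms microfibrils, and Fstl1, a secreted follistatin-like protein, had log2 fold changes of 0.26 to 0.46 with all mice (-0.53 to -0.30 with library size alone) and of 1.12 to 2.19 without db/m replicate 1.

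Enzymes and inhibitors did not share a direction. Their summed level was 20.6, 24.6 and 22.9 CPM in db/db islets and 41.5, 22.7 and 27.8 CPM in db/m islets, with Timp3 and Timp2 as the most abundant. The median log2 fold change of the 5 tested genes was 0.78, and -0.06 with library size alone. Timp3 alone passed an unadjusted p under 0.05 with all 6 mice.

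Timp3, an inhibitor of metalloproteinases that stays bound to the matrix, had 153, 196 and 152 counts in db/db islets and 751, 281 and 380 in db/m islets. These were 12.3, 11.7 and 10.2 CPM against 27.6, 16.4 and 20.6 CPM, with means of 11.4 ± 1.07 and 21.5 ± 5.66 (SD, n = 3 each), and the groups did not overlap with TMM or with library size alone. The log2 fold change was -0.92 ± 0.25 (SE, edgeR, adjusted p = 0.136, from 0.0483 to 0.439 over the alternatives), and it was -0.67 without db/m replicate 1. Timp3 (chr10:86300372-86349506, plus strand) lies inside the span of Syn3 on the opposite strand, and whether reads were counted by strand was not given in the sources used here. Syn3 itself had 28 to 31 counts in the db/db and 32 to 74 in db/m islets.

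The stretch of 80 bases upstream of the annotated exons of Timp3 (RefSeq, GRCm38.p6, chr10:86300292-86300371, plus strand), which ends 40 bases before the RefSeq start, is shown because this was the only stromal gene lower in all db/db mice. It holds none of the 3 motifs searched:
Timp3: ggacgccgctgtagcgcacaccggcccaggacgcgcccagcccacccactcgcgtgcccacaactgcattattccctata

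RefSeq gave 28 promoter windows for 25 of the 36 genes, and none was used for Col1a1, Col5a2, Dcn, Fn1, Lamc1, Lox, Lum, Mmp2, Pdgfrb, Tagln and Thy1. In the 120 bases before the start, the CCAAT box (CCAAT or ATTGG) was in 6 of the 28 windows and in 21.3% of 32851 windows of all genes. The GC box (GGGCGG or CCGCCC) was in 12 of 28 windows, that of Timp3 included, and in 26.5% of all windows. The TATA box (TATAAA or TTTATA) was in 3 of 28, those of Col3a1, Postn and Vim, and in 6.34% of all windows. A match of letters is not a binding site, and nothing was measured on these promoters here.

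Timp2, a soluble inhibitor that also takes part in activating Mmp2, had 4.26, 6.22 and 8.54 CPM in db/db and 9.58, 4.48 and 5.41 CPM in db/m islets, with a log2 fold change of -0.04 ± 0.37 (SE). Mmp2, a gelatinase, Mmp14, the membrane-bound protease that activates it, and Lox, which cross-links collagen, had log2 fold changes of 0.95 ± 0.72, 0.93 ± 0.59 and 0.78 ± 0.95 (SE). Of these, Mmp2 passed an unadjusted p under 0.05 without db/m replicate 1 (2.21 ± 0.72). Lox rested on 8 to 16 counts in db/db and 0 to 21 in db/m mice.

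Mesenchymal cell markers did not separate the groups. Their summed level was 10.6, 17.4 and 24.2 CPM in db/db islets and 26.7, 18.3 and 7.69 CPM in db/m islets, with a median log2 fold change of -0.05 over the 6 tested genes, 0.85 without db/m replicate 1 and -0.81 with library size alone. No gene passed an unadjusted p under 0.05 with or without db/m replicate 1.

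Vim, vimentin, the intermediate filament of mesenchymal cells and leukocytes, was the most abundant marker, with 4.90, 3.71 and 10.6 CPM in db/db and 10.1, 5.94 and 1.95 CPM in db/m mice (log2 fold change 0.09 ± 0.58, SE). Rgs5, a marker of pericytes, had 2.49, 4.01 and 4.44 CPM against 3.30, 1.11 and 2.65 CPM, and its log2 fold change of 0.62 ± 0.46 had an adjusted p of 0.555 (edgeR). Pdgfrb, the PDGF receptor of pericytes, and Thy1, a surface marker of fibroblasts, were at 0.10 ± 0.65 and -0.19 ± 1.08 (SE).

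Acta2 and Tagln, the smooth muscle actin and an actin-binding protein of smooth muscle cells and myofibroblasts, were unlike the collagens in that db/m replicate 2, not replicate 1, was highest. Acta2 had 1.04, 3.35 and 1.08 CPM in db/db and 2.94, 6.93 and 0.541 CPM in db/m mice. Tagln had 0.803, 0.957 and 0.807 CPM against 1.25, 2.85 and 0 CPM. Their log2 fold changes were -0.91 ± 0.80 and -0.66 ± 1.04 (SE). Tagln overlaps Pcsk7 on the opposite strand, which had 141 to 245 counts in the 6 mice.

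Ratios between genes counted in the same library do not depend on how libraries are scaled. The counts of the fibrillar collagens relative to those of the basement membrane genes were 1.19, 0.982 and 1.17 in db/db islets and 0.601, 0.142 and 0.106 in db/m islets, a comparison chosen after the sums had been seen and given without a test. Here db/m replicate 1 lay below all db/db mice. The same held for collagen VI (0.243 to 0.296 against 0.0267 to 0.233) and for the glycoproteins (0.899 to 1.98 against 0.307 to 0.798), while the enzymes and the mesenchymal markers overlapped. For collagen VI the groups were parted only by the gap between 0.243 and 0.233. The first of these values rests on 62 collagen VI and 255 basement membrane counts in db/db replicate 1, so this gap is not read as a difference.

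For 5 ratios of single genes the mice were permuted between the groups (exact permutation test, two-sided, adjusted over the 5 ratios), and the smallest p that 3 against 3 mice allow is 0.1. Col1a1 to Col4a1, the interstitial against the basement membrane collagen, was 5.71, 3.30 and 4.45 in db/db and 1.11, 0.0600 and 0.0750 in db/m mice (exact p = 0.1, adjusted p = 0.167), a difference of 4.68 on the log2 scale that was 6.03 without db/m replicate 1, 3.93 without db/m replicate 2 and 4.09 without db/m replicate 3, and that rests on 3 Col1a1 counts in each of db/m replicates 2 and 3. Col1a1 to Col1a2, the chains of type I collagen, which assemble from a pair of α1 chains and a single α2 chain, was 1.05, 1.11 and 0.902 against 0.702, 0.136 and 0.214 (exact p = 0.1, adjusted p = 0.167). Its log2 difference of 1.90 rests on the same 3 counts and was 2.57 without db/m replicate 1. Neither ratio overlapped between the groups.

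Col3a1 to Col1a1 was lower in all db/db mice, with 1.45, 1.32 and 1.85 against 2.84, 4 and 8.67 (exact p = 0.1, adjusted p = 0.167). The values of db/m replicates 2 and 3 rest on 3 Col1a1 counts each, and their 95% counting intervals of 1.08 to 22.1 and 2.66 to 44.7 reach across most of the range. Col4a1 to Col4a2 ranged from 0.375 to 1.08 in db/db and 0.292 to 1.09 in db/m mice (exact p = 0.8). Mmp2 to Timp2 was 0.396, 0.135 and 0.165 against 0.146, 0.0649 and 0.05 (exact p = 0.2, adjusted p = 0.25), and the groups overlapped.

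**Figure D4:**
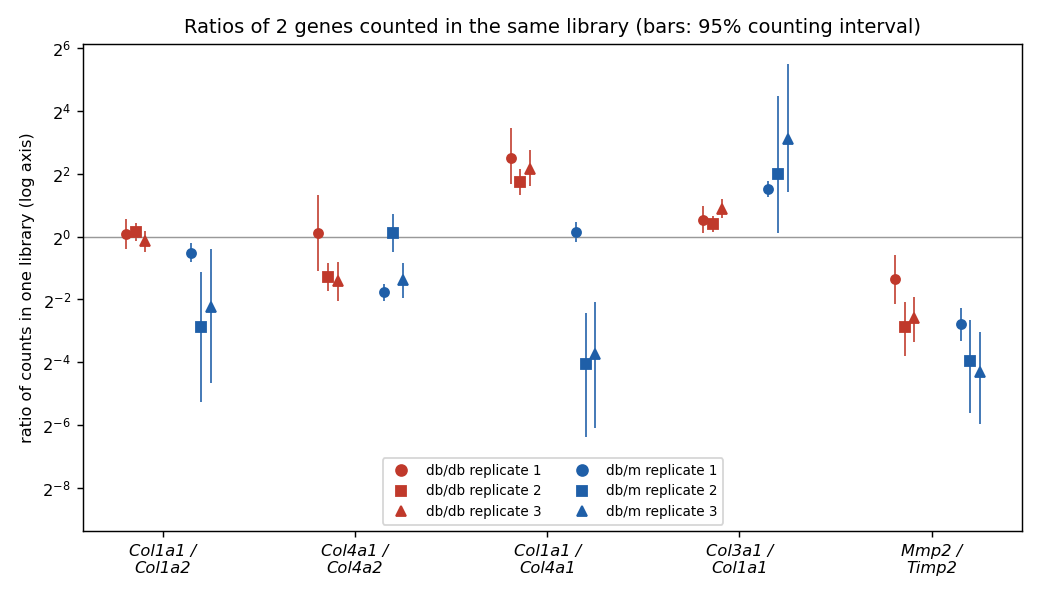
Ratio of the counts of 2 stromal genes in the same library (y axis, log scale) for each db/db mouse (red) and db/m mouse (blue), with 95% counting intervals. Col1a1 to Col4a1 is 3.30 to 5.71 in db/db islets and 0.0600 to 1.11 in db/m islets; Col4a1 to Col4a2 overlaps between the groups.

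Other genes of matrix biology outside the 36 were read from lists of collagens, basement membrane and matrix proteins, collagen-modifying enzymes, proteases, matrix receptors and TGF-β or PDGF signalling. Of 135 listed symbols 132 were in the table and 83 were tested. None passed an adjusted p under 0.05 (edgeR), and 6 were higher and 6 lower at an unadjusted p under 0.05, against 5.04 and 9.89% of all tested genes. Without db/m replicate 1 the numbers were 12 and 3 of 87, against 4.61 and 6.2%. Their median log2 fold change was 0.19, beside 0.40 for the 33 stromal genes, and without db/m replicate 1 it was 0.23 beside 1.28. The signs of the genes named next were the same with library size alone.

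The genes named from these lists lay in both directions. Lama5, the laminin α5 chain, was higher in every db/db mouse after TMM normalisation (9.96, 18.7 and 13.99 against 6.17, 8.62 and 7.63 CPM, log2 fold change 0.93 ± 0.29, SE). Nid2, nidogen-2, was lower in each (0.241, 0.598 and 0.269 against 2.20, 0.757 and 1.03 CPM, -1.82 ± 0.66). Vtn, vitronectin, an adhesive plasma and matrix glycoprotein, had 6.82, 6.04 and 9.08 against 13.7, 19.7 and 44.2 CPM (-1.82 ± 0.42, edgeR, adjusted p = 0.0931). Itgav, the αv subunit of its integrin receptors, had 1.28, 1.85 and 1.28 against 6.53, 3.09 and 2.49 CPM (-1.45 ± 0.46). For these genes the groups did not overlap after TMM normalisation, as for 8.53% of all tested genes higher and 12.6% lower in db/db mice. With library size alone the Lama5 groups overlapped. Its counts in db/db replicate 1, the largest library, were 124, against 168, 148 and 141 in db/m mice.

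Bmp1, which cleaves the ends of procollagens, had 4.01, 10.3 and 9.62 CPM in db/db and 42.6, 32.4 and 12.2 CPM in db/m mice (log2 fold change -1.86 ± 0.49, SE, edgeR, adjusted p = 0.121). Serpinh1, the collagen chaperone HSP47, was at -0.65 ± 0.34. Cyr61, a matricellular protein, was at -1.44 ± 0.37 (edgeR, adjusted p = 0.117), and Ltbp3, which holds latent TGF-β, at 0.60 ± 0.25. Cd44, the hyaluronan receptor, was at 1.58 ± 0.50, although its db/db and db/m ranges of 6.26 to 20.4 and 2.91 to 7.75 CPM overlapped.

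Mmp7, matrilysin, had 10, 41 and 34 counts in db/db and 0, 1 and 12 in db/m mice, and the protease Adamts1 was at -0.88 ± 0.46. Thbs2, thrombospondin-2, had 8, 19 and 38 counts against 19, 1 and 0, the pattern of the fibrillar collagens. Col4a5, a basement membrane collagen, and Col27a1, a fibrillar one, were at 0.72 ± 0.35 and 1.22 ± 0.68, and none of these 5 genes had an adjusted p under 0.05.

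Markers of some other cells shared with many stromal genes the high level of db/m replicate 1 among the db/m mice. The 11 leukocyte markers, among them Ptprc, Cd68 and Lyz2, summed to 76.2, 31.6 and 108 CPM in db/db islets and to 128, 17.1 and 10.8 CPM in db/m islets, so that db/m replicate 1 was 9.18 times above the mean of replicates 2 and 3, near the 9.62 times of the fibrillar collagens. Of the 11, 1 was higher at an unadjusted p under 0.05 with all mice, against 5.04% of all tested genes. Without db/m replicate 1, 8 were higher, against 4.61%, and 5 of the 11 were counted at 10 or more in every mouse. Within the db/db group, replicate 2 was the lowest for the leukocyte markers but the highest for the fibrillar collagens (46.4 CPM). The part of leukocytes in the stromal result was not tested.

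The 12 endothelial markers summed to 17.3, 33.0 and 35.3 CPM in db/db islets and to 64.1, 27.3 and 35.5 CPM in db/m islets, with the same highest and lowest mouse as the basement membrane genes. The pericyte, fibroblast and stellate, and β-cell lists had the same highest and lowest mouse, so this is not particular to endothelial markers. Of the 12 endothelial markers 1, Kdr, was lower at an unadjusted p under 0.05 with all mice, against 9.89% of all tested genes. Without db/m replicate 1 the number was 0, against 6.2%. Pericyte markers summed to 2.89 to 8.31 CPM in db/db and 5.74 to 14.6 CPM in db/m mice, smooth muscle markers to 5.22 to 13.9 and 8.34 to 15.7 CPM, and fibroblast and stellate markers to 10.03 to 15.4 and 11.7 to 39.5 CPM. At most 1 gene of each of these 3 lists had 10 counts or more in every mouse. Gsn made up most of the fibroblast and stellate sum. It had 8.11, 11.7 and 13.85 CPM in db/db and 34.9, 11.1 and 11.3 CPM in db/m mice. That sum thus says little of the other genes of the list. The mesothelial, Schwann cell and adipocyte lists stayed at 4.04 CPM or lower in sum, and Upk1b and Lep had 0 counts in every mouse.

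The share of acinar RNA was higher in every db/db mouse, with 72.2, 67.0 and 66.0% of counts against 50.4, 61.6 and 64.4%. That of β-cell RNA was 0.152, 0.645 and 0.489% in db/db and 4.40, 0.820 and 0.775% in db/m mice. Of the 11 β-cell markers 4, Slc30a8, Slc2a2, Nkx6-1 and Mafa, fell in db/db islets (edgeR, adjusted p = 0.0246 to 0.0489), where 0.619% of all tested genes passed an adjusted p under 0.05. Duct markers summed to 171 to 225 CPM in db/db and 115 to 178 CPM in db/m mice, and non-β endocrine markers to 391.9 to 811 and 274 to 1774 CPM. The part of this difference in composition in the stromal results was not tested.

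**Figure D5:**
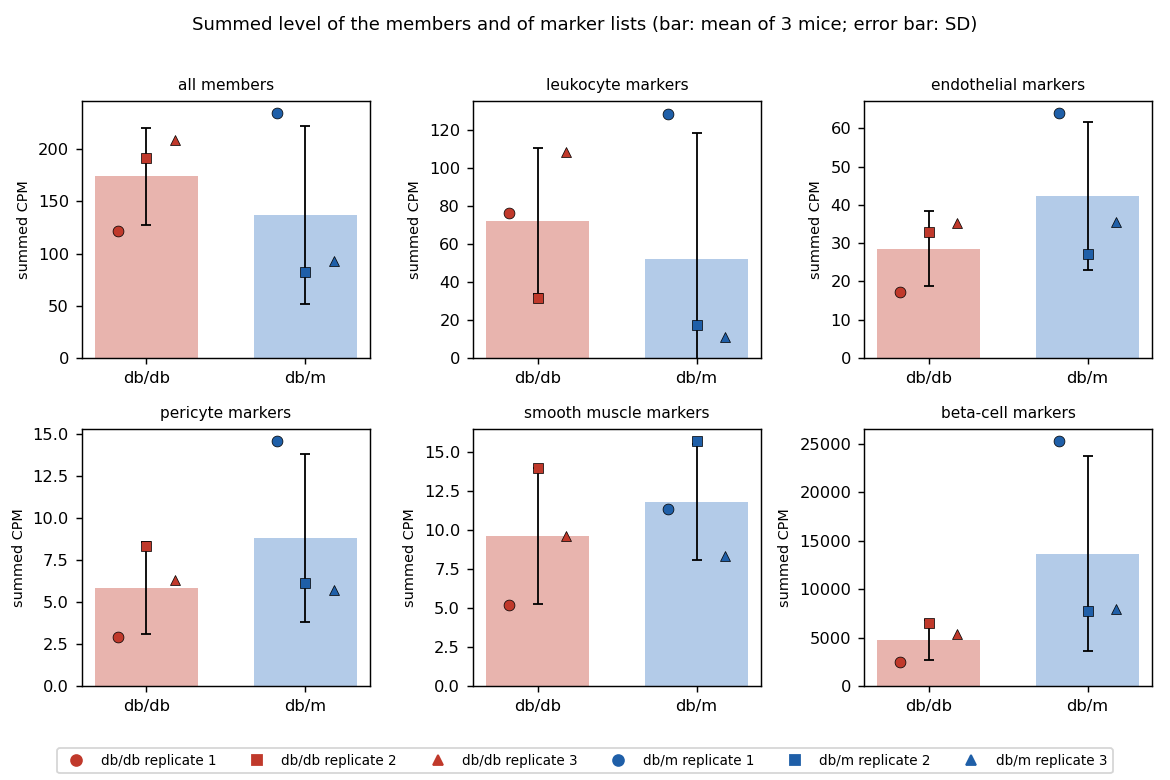
Summed level (CPM, TMM-normalised, linear axes from 0) of the 36 stromal genes and of 5 marker lists in every mouse, with bars for the mean of 3 mice and error bars for the SD (drawn down to 0 at most). Db/m replicate 1 is highest of the db/m mice for the stromal genes (235 CPM), the leukocyte, endothelial, pericyte and β-cell markers, but not for the smooth muscle markers. With library size alone it is highest for the smooth muscle markers as well (19.7 CPM, against 16.7 and 8.10 in db/m replicates 2 and 3).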

How the data were processed

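RNA of islets from 3 db/db and 3 db/m mice was depleted of rRNA and sequenced. The authors deposited the raw read counts of each gene symbol, without normalization. Per the labels, reads were mapped to mm10 (the submitters' processing notes name HISAT2 2.0.4, and the paper names TopHat). The counting program, annotation and use of strand are not given in the sources used here. Groups were taken from the sample titles.

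The tests were run with edgeR 4.0.16 in R 4.3.3 (default filter on low counts, TMM factors, quasi-likelihood F-test on the whole table, Benjamini-Hochberg adjustment over 12760 genes, threshold 0.05) and, as an alternative, DESeq2 1.42.0. The standard error of a log2 fold change is its size divided by the square root of F. Ratios were compared in Python 3.11.15 (scipy 1.17.1), and figures were drawn with matplotlib 3.10.9. Positions, overlaps and exon lengths were read from the GENCODE annotation of GRCm38.

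The 36 genes and all lists were chosen with earlier results of these data known. Values per mouse are given for genes with an adjusted or unadjusted p under 0.05, and in each role group for the gene with the smallest p and that with the highest mean CPM. From other lists, genes with an adjusted p under 0.05 are named, and otherwise the 2 with the smallest p. Dcn, Postn, Timp2, Acta2 and Tagln are described mouse by mouse outside this rule, after their values were seen. Alternatives were other scalings and filters, DESeq2, the replicate number as a block, and leaving out each mouse. The same-numbered mice did not deviate together (correlations of -0.527 to -0.195). Replicates of the same group differed beyond counting error (chi-square divided by its degrees of freedom 26.5 to 147).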

Additional observations from a re-analysis of the deposited data

How the results depend on the processing

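Of the main counts, medians and ratios under the alternatives, 107 were tallied as close to their value, 22 as moved and 1 as reversed. The tally does not count every change of direction. The log2 difference of Col4a1 to Col4a2, 0.153 with all mice, was tallied as close at -0.332 without db/db replicate 1. It was also tallied so at -0.227 and -0.0351 without db/m replicates 1 and 3. The ratio of summed levels, 1.27 with all mice, fell below 1 with library size alone and was tallied as moved. With library size alone, the median log2 fold change of the stromal genes was -0.304 (all genes -0.588), the ratio of summed levels 0.775, 0 genes were higher at an unadjusted p under 0.05 and 0 without overlap, and 1 other matrix gene was higher; Col6a3 was at -0.456 and Vim at -0.657. DESeq2 called 3 stromal genes at an adjusted p under 0.05. Without a filter on low counts, 2 were called (Bgn and Col1a1), where 888 genes of the series were. In that fit 7 stromal genes were higher at an unadjusted p under 0.05, and 13 other matrix genes were higher and 12 lower. The share of all genes at that unadjusted p is not given here.

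Leaving out each mouse in turn gave 0 to 3 stromal genes at an adjusted p under 0.05, 2 to 16 higher at an unadjusted p under 0.05, a median of 0.23 to 1.28, a ratio of summed levels of 1.06 to 1.98, 3 to 15 genes higher and 1 to 2 lower without overlap (8 without db/db replicate 1 and 5 without db/db replicate 2, where 13.5 and 15.4% of all tested genes were higher without overlap, and 15 without db/m replicate 1, where 12.2% were), and 2 to 12 other matrix genes higher and 3 to 9 lower. The extremes of 3, 16, 1.28 and 15 were those without db/m replicate 1. The sign changed for 15 of the 33 genes in at least 1 of these fits, 7 of them without db/m replicate 1 and 7 without db/m replicate 2. Of the 12 genes named by the rule, it changed for Nid1 (-1.15 to 0.312, above 0 without db/m replicate 1), Lamc1 (-0.214 to 0.163, above 0 without db/db replicate 1 and, at 0.0104, without db/m replicate 1), Col6a3 (-0.275 to 1.9, below 0 without db/db replicate 2 and, at -0.186, without db/m replicate 2) and Vim (-0.474 to 0.715, below 0 without db/db replicate 3 and, at -0.312, without db/m replicate 3). The causes were not tested.

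With the replicate number as a block, 5 stromal genes were higher at an unadjusted p under 0.05 and 0 passed an adjusted p under 0.05, where 16 of all tested genes did. The share of all genes at the unadjusted p is not given here. The replicate numbers are only shared labels.

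Genes called among all tested were 79, with 21 (library size alone), 52 (upper-quartile factors), 707 (DESeq2), 888 (no filter), 16 (block) and 10 to 333 (leaving out a mouse) under the alternatives. The upper-quartile factors, the stricter filter of 10 counts in 3 mice and the removal of genes with at least 1% of a library left the counts of stromal genes as they were. Genes with under 10 counts in a library, such as Lum, Postn and Col1a1 in db/m replicates 2 and 3, are limited by depth, and 3 mice per group limit every test.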
